A study of Mus musculus with 6 samples.

Results

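Src family kinases, Tec family kinases and their adaptors form a signalling module best known from the B cell receptor and shared by myeloid cells. The genes described here are *Lyn*, *Fgr*, *Fyn* and *Src* (Src family kinases), *Btk* and *Tec* (Tec family kinases), and *Blnk*, *Pik3ap1* and *Vav1* (adaptors, the last also an exchange factor). They were chosen by symbol, and all 9 were among the 16516 genes of the deposited table. The RNA-seq libraries came from CD11b+ cells that magnetic beads had retained from the cortex of male wild-type C57BL6/J mice, 8 to 10 weeks old. In 3 pools the mice had been given normal saline (NS) and in 3 pools lipopolysaccharide (4LPS, 500 µg/kg), by 4 daily intraperitoneal injections in both groups, and cells were taken 7 days after the first injection. Each pool held 2 mice. CD11b is carried by microglia, other myeloid cells and NK cells, all of which the beads can retain.

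When an activating receptor such as an Fc receptor or Trem2 is bound, a Src family kinase phosphorylates an ITAM, a tyrosine motif on partner chains such as Tyrobp and Fcer1g. Syk docks on the ITAM and, with Tec family kinases and scaffolds such as Blnk, turns on phospholipase C gamma, PI3-kinase and Rac. Src family kinases, Lyn above all, also phosphorylate inhibitory motifs (ITIMs) on receptors that recruit phosphatases, so the family can both start and restrain a signal. In microglia this module serves phagocytosis, motility and responses to Fc receptors and integrins.

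In 4LPS pools *Fgr*, *Src* and *Pik3ap1* were higher than in NS pools, and none of the 9 genes was lower. *Fgr*, a Src family kinase of myeloid cells, rose 2.66-fold, *Src*, which names the family, rose by 49.6%, and *Pik3ap1*, an adaptor that binds PI3-kinase, rose by 35.4%. The other 6 genes (*Lyn*, *Fyn*, *Btk*, *Tec*, *Blnk* and *Vav1*) did not pass, with log2 fold changes between -0.08 and 0.15. Calls rest on edgeR's quasi-likelihood test of rounded counts and a Benjamini-Hochberg adjusted p under 0.05 over 13151 genes, and all 9 genes passed the filter on low counts. Of all genes tested 9.95% were higher and 6.43% lower, 16.4% together, so 3 of 9 stands beside that background. The 9 genes were chosen with earlier results of these data known, so this comparison is descriptive only. The median log2 fold change was 0.14 for the 9 genes and -0.02 for all genes tested. A bulk sample cannot tell fewer cells of a type from less RNA per cell.

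**Figure D1:**
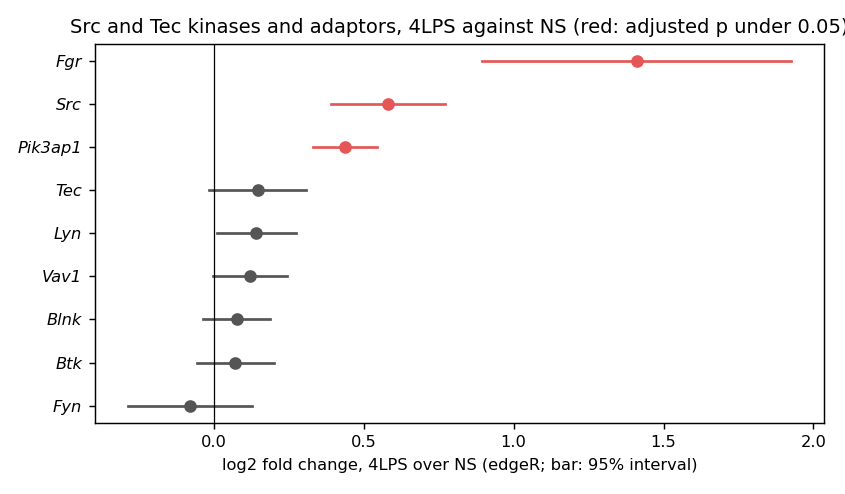
Log2 fold change of 4LPS over NS (x axis) for the 9 genes (y axis). Points are edgeR estimates and bars 95% intervals (n = 3 pools each), and *Fgr* (1.41), *Src* (0.58) and *Pik3ap1* (0.44), in red, lie well above 0.

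Depth was nearly equal, at 15158342 to 15746606 counts per NS pool and 15164123 to 15462396 per 4LPS pool. Levels within a gene are given in CPM, counts scaled to a common total after TMM normalization, and ± is the SD over n = 3 pools. The 12 microglia markers summed to 48586 ± 1546 CPM (NS) and 47053 ± 280.2 CPM (4LPS). Carry-over from other cells varied within and between groups. The 8 choroid plexus markers summed to 6579.8, 5713 and 658 CPM in the NS pools (replicates 1, 2, 3) and to 2218, 3.26 and 534 CPM in the 4LPS pools, so NS replicate 3 stood apart from the other NS pools, 4LPS replicate 2 had almost none, and the NS mean was higher. Without NS replicate 3, without 4LPS replicate 2 and without any other single pool, the genes called of the 9 were again *Fgr*, *Src* and *Pik3ap1*.

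Levels between genes are compared in FPKM, the authors' value scaled for gene length. The NS order was *Lyn* at 247 ± 11.2, *Vav1* at 134 ± 4.41, *Blnk* at 132 ± 2.35, *Pik3ap1* at 98.5 ± 1.94, *Btk* at 47.5 ± 2.04, *Tec* at 26.7 ± 1.48, *Src* at 18.4 ± 1.07, *Fyn* at 9.09 ± 0.622, *Fgr* at 3.403 ± 0.852 FPKM (SD, n = 3). Each gene was separate from the next in all NS pools, except that *Vav1* and *Blnk* overlapped. *Lyn* stood above 98.5% of genes in the table and *Fgr* above 42.5%. The 4LPS order was *Lyn* at 254 ± 5.89, *Vav1* at 136 ± 3.801, *Blnk* at 130.4 ± 5.29, *Pik3ap1* at 125 ± 2.498, *Btk* at 46.8 ± 1.19, *Tec* at 27.7 ± 1.39, *Src* at 25.8 ± 2.22, *Fgr* at 8.47 ± 2.002, *Fyn* at 8.05 ± 0.552 FPKM (SD, n = 3). There *Fgr* came before *Fyn*, although their pools overlapped, and *Blnk* also overlapped *Vav1* and *Pik3ap1*, and *Tec* overlapped *Src*.

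**Figure D2:**
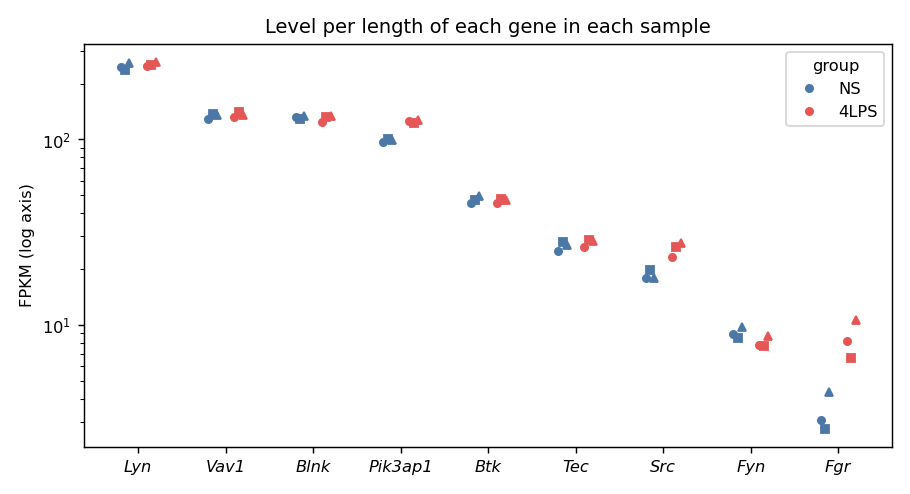
FPKM on a log axis (y axis) of each of the 9 genes (x axis, ordered by the NS mean), with 1 point per NS (blue) and 4LPS (red) pool. *Lyn* lies highest in both groups, and *Fgr* moves from 2.76 to 4.37 FPKM in NS to 6.64 to 10.6 FPKM in 4LPS.

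Among Src family kinases of this set, *Fgr* changed most. It spans chr4:132701257-132730053 (GRCm39) with 13 exons in its canonical transcript. It was at 9.0, 8.24 and 13.02 CPM in the NS pools (replicates 1, 2, 3) and at 25.6, 21.0 and 33.8 CPM in the 4LPS pools. Every 4LPS pool was above every NS pool, and replicate 3 was highest in both groups. The estimate was 1.41 (SE 0.22, edgeR adjusted p 0.00522) on the log2 scale, with a 95% interval (as in all that follow) from a fold of 1.86 to one of 3.799. *Fgr* was also the most variable of the 9, with a coefficient of variation of 25.5% in NS and 24.2% in 4LPS.

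Neutrophils, monocytes and NK cells transcribe *Fgr* too. Their markers are therefore given beside it. The 12 neutrophil markers summed to 197, 207 and 771 CPM in the NS pools (replicates 1, 2, 3) and to 1204, 512 and 792 CPM in the 4LPS pools. The means were 392 ± 329 CPM (NS) and 836 ± 348 CPM (4LPS). Of the 12 markers 0 passed, with log2 fold changes from 0.31 (*Mpo*) to 1.42 (*Mmp8*). The 10 monocyte markers summed to 182, 133 and 295 CPM in the NS pools (replicates 1, 2, 3) and to 249.6, 170.0 and 253 CPM in the 4LPS pools, with 1 of 9 tested higher. The 14 NK cell markers summed to 12.3 ± 3.604 CPM (NS) and 165 ± 10.97 CPM (4LPS), and 13 were higher. Several of these, such as *Ncr1*, passed the filter on low counts through the 4LPS pools alone. Only the NK cell sum separated the groups among these 3 lists, and the part of these cells in the *Fgr* result was not tested.

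**Figure D3:**
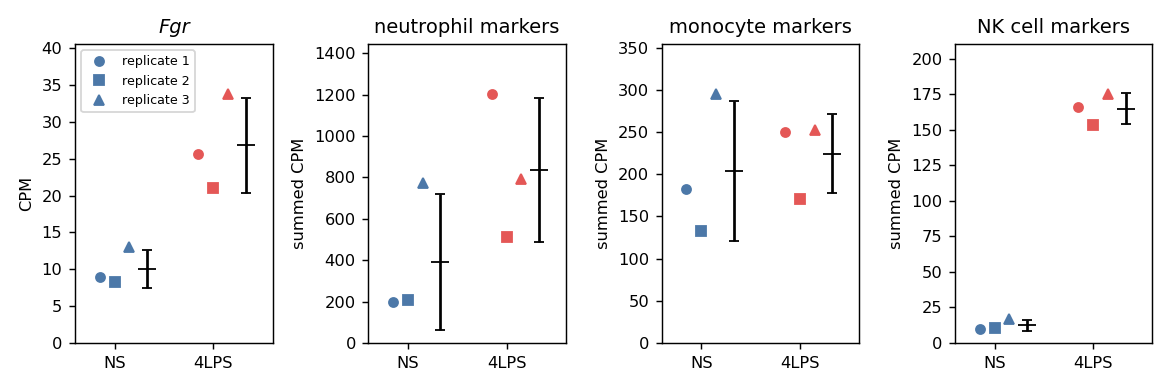
*Fgr* and the summed neutrophil, monocyte and NK cell markers, each in CPM (y axes), by NS and 4LPS pool (x axes), with bars for mean ± SD (n = 3). *Fgr* and the NK cell sum separate the groups, and the neutrophil and monocyte sums overlap between them.

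*Src*, a kinase of integrin adhesions found in most cell types, spans chr2:157260355-157313782 with 14 exons. It was at 61.1, 68.7 and 62.4 CPM in the NS pools (replicates 1, 2, 3) and at 85.9, 98.02 and 103 CPM in the 4LPS pools. The lowest 4LPS pool stood well above the highest NS pool. The estimate was 0.58 (SE 0.08, edgeR adjusted p 0.00327), with an interval from a fold of 1.31 to one of 1.71. Neurons and astrocytes also express *Src*. Astrocyte markers summed to 316 ± 12.96 CPM (NS) and 237 ± 15.7 CPM (4LPS) and neuron markers to 21.97 ± 2.94 CPM (NS) and 15.97 ± 1.76 CPM (4LPS), both lower in every 4LPS pool. NK cell markers, at 12.3 CPM (NS) and 165 CPM (4LPS), and T cell markers, at 3.15 CPM (NS) and 20.3 CPM (4LPS), were higher in every 4LPS pool. The part of any of these cells in the *Src* result was not tested. Noncoding genes on the opposite strand overlap exons of *Lyn*, *Fgr*, *Fyn* and *Src*. Since the strand setting of counting is not stated, reads of such genes cannot be told apart from theirs.

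*Lyn*, the most abundant Src family kinase here, spans chr4:3678061-3813122. It was at 742, 724 and 793 CPM in the NS pools (replicates 1, 2, 3) and at 807, 826 and 858 CPM in the 4LPS pools. The groups did not overlap in CPM but did in FPKM, at 236 to 258 (NS) and 249 to 261 (4LPS). The estimate was 0.14 (SE 0.06, edgeR adjusted p 0.129), with an unadjusted p of 0.0395 and an interval from a fold of 1.01 to one of 1.21. *Lyn* passed with DESeq2 (adjusted p 0.0328), and its adjusted p ranged up to 0.568 over the 19 alternatives. With *Lyn*, 4 of the 9 genes had an unadjusted p under 0.05, beside 33.7% of all genes tested.

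*Fyn*, a kinase of T cells, NK cells and oligodendrocytes as well as of myeloid cells, spans chr10:39244851-39442227. It was at 27.7, 26.97 and 30.9 CPM in the NS pools (replicates 1, 2, 3) and at 25.8, 25.8 and 29.4 CPM in the 4LPS pools. The groups overlapped. *Fyn* alone of the 9 had an estimate below 0, at -0.08 (SE 0.09, edgeR adjusted p 0.569), with an interval from a fold of 0.8196 to one of 1.09.

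The other Src family kinases showed a change in *Lck* and no call in *Yes1* or *Frk*. The estimates of *Yes1*, found in most tissues, and *Frk* were -0.14 (SE 0.08, edgeR adjusted p 0.248) and -0.52 (SE 0.34, edgeR adjusted p 0.314). *Lck*, the family member of T cells and NK cells, was at 0.667 ± 0.153 CPM (NS) and 6.23 ± 0.529 CPM (4LPS), a rise of 3.21 (SE 0.24, edgeR adjusted p 1.51e-04) log2 units. It had 8, 11 and 13 counts in the NS pools (replicates 1, 2, 3). It passed the filter on low counts only through the 4LPS pools, so it could only be called higher. In the same pools the NK cell markers summed to 12.3 ± 3.604 CPM (NS) and 165 ± 10.97 CPM (4LPS) and the T cell markers, of which *Lck* is one, to 3.15 ± 0.9396 CPM (NS) and 20.3 ± 0.611 CPM (4LPS). The T cell receptor chains *Cd3d*, *Cd3e* and *Cd3g* were at 0.519, 0.429 and 0.474 CPM on average in 4LPS and did not pass the filter on low counts, and the part of these cells in the *Lck* result was not tested. *Blk*, the B cell member, had 3 counts over the NS pools and 16 over the 4LPS pools, a ratio of 5.77 (exact 95% counting interval 1.65 to 30.9). Of the 16 counts, 10 came from 4LPS replicate 2. Such an interval covers counting error only, not the spread between pools. *Blk* did not pass the filter on low counts and was not tested.

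Of the summed FPKM of all 9 Src family kinases, *Lyn* held 62.7% ± 1.47 (NS) and 61.5% ± 0.849 (4LPS) (SD, n = 3). *Src* accounted for 4.57%, 5.102% and 4.42% of it in the NS pools and for 5.68%, 6.43% and 6.61% in the 4LPS pools. *Fgr* accounted for 0.791%, 0.716% and 1.08% of it in the NS pools and for 1.99%, 1.61% and 2.54% in the 4LPS pools. Both shares were higher in every 4LPS pool. The shares of *Fyn*, 2.31% ± 0.103 (NS) and 1.95% ± 0.113 (4LPS), and *Yes1*, 2.401% ± 0.0484 (NS) and 1.93% ± 0.135 (4LPS), were lower in every 4LPS pool. A two-sided exact permutation test of 3 against 3 cannot go below 0.1, and the shares of *Src*, *Fgr*, *Fyn*, *Yes1*, *Lck*, *Blk* and *Frk* each reached that p (adjusted 0.129 over 9 shares), while that of *Lyn* had an exact p of 0.3. The family's summed FPKM was 386 to 404 (NS) and 411 to 418 (4LPS).

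Neither Tec family kinase of the set passed. *Btk*, which binds the lipid product of PI3-kinase and phosphorylates phospholipase C gamma, spans chrX:133443084-133484319. It was at 98.2, 104 and 109 CPM in the NS pools (replicates 1, 2, 3) and at 105, 111 and 110.5 CPM in the 4LPS pools. The groups overlapped, and the estimate was 0.07 (SE 0.06, edgeR adjusted p 0.404), with an interval from a fold of 0.9604 to one of 1.15. Without a composition factor it was -0.0268. *Tec*, which names its family, spans chr5:72913059-73034903. It was at 56.5, 64.1 and 61.9 CPM in the NS pools (replicates 1, 2, 3) and at 63.0, 69.8 and 69.03 CPM in the 4LPS pools. NS replicate 2 lay above 4LPS replicate 1, and the estimate was 0.15 (SE 0.07, edgeR adjusted p 0.183), with an interval from a fold of 0.989 to one of 1.24.

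Among other Tec family kinases, *Txk*, of T cells and NK cells, rose. It had 4 counts over the NS pools and 133 over the 4LPS pools, a ratio of 35.99 (exact 95% counting interval 13.7 to 134) and an estimate of 5.04 (SE 0.52). It passed the filter on low counts through the 4LPS pools alone, so it could only be called higher. Its 4LPS level stayed low, at 3.002 ± 0.397 CPM. *Bmx* was at 5.596 ± 3.005 CPM (NS) and 5.04 ± 1.82 CPM (4LPS) and did not pass (edgeR adjusted p 0.819).

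**Figure D4:**
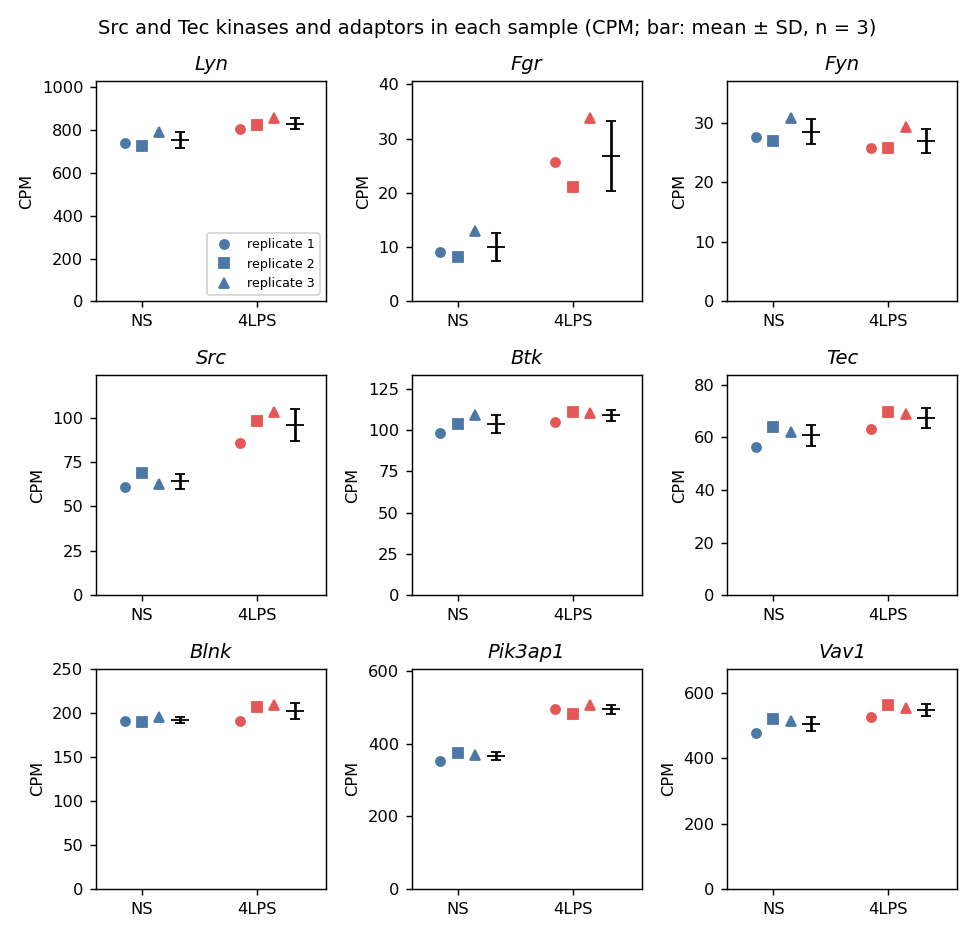
CPM (y axes, from 0) of the 9 genes in each NS (blue) and 4LPS (red) pool (x axes), with bars for mean ± SD (n = 3). The groups are far apart for *Fgr*, *Src* and *Pik3ap1*, close but separate for *Lyn* and *Vav1*, and overlapping for *Fyn*, *Btk*, *Tec* and *Blnk*.

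Of the adaptors, *Pik3ap1* rose. Also called BCAP, it carries tyrosine motifs that bind the regulatory subunit of PI3-kinase and links B cell and Toll-like receptors to that enzyme. It spans chr19:41260816-41373548 with 17 exons. It was at 353, 374 and 369 CPM in the NS pools (replicates 1, 2, 3) and at 495, 483 and 506 CPM in the 4LPS pools. The groups were far apart beside a coefficient of variation of 3.02% in NS and 2.33% in 4LPS. The estimate was 0.44 (SE 0.05, edgeR adjusted p 7.62e-04), with an interval from a fold of 1.26 to one of 1.46, and its adjusted p was the smallest of the 9.

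*Blnk*, the scaffold that brings Btk to phospholipase C gamma once Syk has phosphorylated it, spans chr19:40916595-40982978. It was at 191, 189 and 195 CPM in the NS pools (replicates 1, 2, 3) and at 191, 207 and 209 CPM in the 4LPS pools. 4LPS replicate 1 lay within the NS range. The estimate was 0.08 (SE 0.05, edgeR adjusted p 0.299), with an interval from a fold of 0.976 to one of 1.14, and -0.0217 without a composition factor. *Blnk*, *Btk* and *Pik3ap1* are best known from B cells. Of 14 B cell markers, 11 were in the table and summed to 112 ± 9.93 CPM (NS) and 114 ± 2.78 CPM (4LPS), groups that overlapped. The markers *Ms4a1*, *Pax5* and *Cd79a* were at or below 0.434 CPM in all 6 pools. Of the 4 tested, *Cd22* was higher and *Bank1* lower, and *Cd79b*, at 15.8 ± 2.04 CPM (NS) and 20.7 ± 0.0199 CPM (4LPS), and *Ebf1*, at 6.45 ± 2.897 CPM (NS) and 3.48 ± 1.16 CPM (4LPS), did not pass. The part of B cells in the levels of *Blnk*, *Btk* and *Pik3ap1* was not tested.

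*Vav1*, an exchange factor that switches on Rac and is phosphorylated by Src family kinases and Syk, spans chr17:57586095-57636235. It was at 479, 519 and 515 CPM in the NS pools (replicates 1, 2, 3) and at 528, 562 and 553 CPM in the 4LPS pools. The groups were separate in CPM and overlapped in FPKM, at 129 to 137 (NS) and 132 to 140.1 (4LPS). The estimate was 0.12 (SE 0.05, edgeR adjusted p 0.161), with an interval from a fold of 0.997 to one of 1.18. In all, 5 of the 9 genes were separate between groups in CPM, all higher in 4LPS, beside 19.9% of all genes tested that were separate and higher and 37.4% that were separate either way. In FPKM 3 were separate and higher, beside 11.9% (40.7% either way).

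Promoters are shown for *Fgr* and *Pik3ap1*, which rose, and for *Vav1*, which did not pass. They are the 250 bases before the RefSeq start, 5′ to 3′, from a table on GRCm38.p6 that held 8 of the 9 genes (not *Lyn*). Each was found once in GRCm39, at chr4:132701156-132701405 (plus strand), chr19:41373542-41373791 (minus strand) and chr17:57585850-57586099 (plus strand). Capitals mark GAGGAA, searched as an exact string on both strands. It stands here for the motif of PU.1, the ETS factor of myeloid cells, and other forms of PU.1 site were not searched.
Fgr: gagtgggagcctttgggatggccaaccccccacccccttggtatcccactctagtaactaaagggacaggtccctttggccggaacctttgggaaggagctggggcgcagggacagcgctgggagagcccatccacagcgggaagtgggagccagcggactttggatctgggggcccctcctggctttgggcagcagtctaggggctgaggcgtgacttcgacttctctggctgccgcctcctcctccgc
Pik3ap1: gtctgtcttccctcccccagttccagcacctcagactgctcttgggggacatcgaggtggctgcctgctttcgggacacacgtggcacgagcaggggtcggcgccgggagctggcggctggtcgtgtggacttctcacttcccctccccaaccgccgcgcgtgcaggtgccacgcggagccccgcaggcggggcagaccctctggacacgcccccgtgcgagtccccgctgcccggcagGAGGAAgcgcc
Vav1: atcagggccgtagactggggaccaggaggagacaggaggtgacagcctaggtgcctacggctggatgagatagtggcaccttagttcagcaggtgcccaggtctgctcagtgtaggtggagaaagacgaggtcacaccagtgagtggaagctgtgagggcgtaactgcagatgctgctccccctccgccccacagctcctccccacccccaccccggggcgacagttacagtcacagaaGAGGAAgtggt
The GAGGAA string stood at -11 to -6 from the start in both *Pik3ap1* and *Vav1* and was not in the *Fgr* window. *Src* held it at -108 to -103, and the other 4 windows did not. The *Src* and *Blnk* windows lie inside their canonical transcripts. Those of *Fyn*, *Tec* and, by its last bases, *Vav1* lie partly inside. Of 27025 promoters in the table, 23.1% held it. AP-1 (TGANTCA), GAS (TTCNNNGAA), ISRE (GAAA and GAAA with 2 bases between) and NF-kB motifs, also searched on both strands, were in none of the 8 windows and in 6.87%, 7.18%, 3.04% and 3.75% of all promoters.

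For each gene the most similar other gene was the one with the smallest root mean square difference of centred log2 CPM over the 6 pools, among 8753 genes. For *Fgr* this was *Pirb*, an inhibitory receptor with ITIMs (difference 0.13). *Pirb* was at 28.95, 27.8 and 37.1 CPM in the NS pools (replicates 1, 2, 3) and at 73.9, 60.4 and 85.6 CPM in the 4LPS pools. As in *Fgr*, replicate 3 was highest and replicate 2 lowest in each group, and the estimate was 1.23 (SE 0.15, edgeR adjusted p 0.00164). *Pirb* has close relatives that can share its reads, so its value is uncertain. For *Src* it was *Slc16a10*, an amino acid transporter (difference 0.03, log2 fold change 0.61, edgeR adjusted p 0.00303). For *Pik3ap1* it was *Npc2*, a lysosomal cholesterol carrier (difference 0.02, log2 fold change 0.40, edgeR adjusted p 0.00164). For *Lyn*, *Fyn*, *Btk*, *Tec*, *Blnk* and *Vav1* it was *Dap*, *Psmd9*, *Tubgcp3*, *Fcgr3*, *Gal3st4* and *Dnajc27*. The match covers all 6 pools and so includes the group difference. The changes of the matched genes follow from how they were picked and are not separate evidence.

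Other genes of the pathway came from lists of 125 names, of which 124 were in the table and 121 tested. Of these 41 were higher (33.9%), 6 lower (4.96%) and 74 did not pass, beside 9.95% higher and 6.43% lower among all genes tested. The median log2 fold change of the 121 was 0.16. The lists were chosen with earlier results of these data known, so these shares describe the lists and do not test them. Some of the 41, *Lck*, *Txk*, *Clnk* and *Sla2* among them, passed the filter on low counts only through the 4LPS pools and could only be called higher. Among Syk family kinases and ITAM chains, 4 of 7 tested were higher and 0 lower. *Fcer1g*, the chain of Fc receptors, had an estimate of 0.34 (SE 0.05, edgeR adjusted p 0.00495). *Zap70*, the Syk relative of T cells and NK cells, had one of 1.93 (SE 0.26, edgeR adjusted p 0.00254), from levels of 0.834 ± 0.137 CPM (NS) and 3.21 ± 0.413 CPM (4LPS). *Syk* was at 351, 363 and 359 CPM in the NS pools (replicates 1, 2, 3) and at 399.5, 418 and 403 CPM in the 4LPS pools. The groups were separate, with an estimate of 0.19 (SE 0.04, edgeR adjusted p 0.0245), but *Syk* did not pass in 9 of 19 alternatives, including the fits without 4LPS replicate 1, 4LPS replicate 2, 4LPS replicate 3, NS replicate 1 or NS replicate 2 (adjusted p 0.0514 to 0.0869), and its estimate moved to 0.08903 (adjusted p 0.153) without a composition factor. *Tyrobp*, the partner chain of Trem2, had one of 0.22 (SE 0.05, edgeR adjusted p 0.0313) and did not pass in 12 of 19 alternatives, including the fits without 4LPS replicate 1, 4LPS replicate 2, 4LPS replicate 3, NS replicate 1 or NS replicate 2 (adjusted p 0.0534 to 0.0893), and its estimate moved to 0.0937 (adjusted p 0.382) with the gene length correction.

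Of 9 activating receptors tested, 3 were higher and 0 lower. *Fcgr4*, an activating receptor for IgG, was at 14.2 ± 0.889 CPM (NS) and 59.7 ± 5.42 CPM (4LPS), a rise of 2.07 (SE 0.09, edgeR adjusted p 2.77e-05) log2 units. *Clec7a*, the beta-glucan receptor Dectin-1, rose by 1.64 (SE 0.19, edgeR adjusted p 0.00132). *Trem2*, a lipid receptor of microglia, had an estimate of 0.27 (SE 0.06, edgeR adjusted p 0.0194) and did not pass in 7 of 19 alternatives, including the fits without 4LPS replicate 3, NS replicate 1 or NS replicate 2 (adjusted p 0.0508 to 0.0703), and its estimate moved to 0.17 (adjusted p 0.0548) without a composition factor.

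Of 22 other adaptors, 9 were higher and 2 lower. *Fyb*, an adaptor to integrins, was at 451 ± 17.98 CPM (NS) and 702 ± 28.0 CPM (4LPS), a rise of 0.64 (SE 0.05, edgeR adjusted p 2.58e-04) log2 units. *Bank1*, a B cell scaffold that binds Lyn, was at 73.3 ± 4.58 CPM (NS) and 39.2 ± 3.57 CPM (4LPS) and fell by 0.90 on the log2 scale (SE 0.08, edgeR adjusted p 3.49e-04). *Gab1*, a docking protein for PI3-kinase, fell by 0.37 on the log2 scale (SE 0.06, edgeR adjusted p 0.007395). *Clnk*, a relative of *Blnk*, had 2 counts over the NS pools and 47 over the 4LPS pools, a ratio of 25.4 (exact 95% counting interval 6.66 to 216). *Sla2*, an adaptor of lymphocytes, had 1 count over the NS pools and 52 over the 4LPS pools, a ratio of 56.3 (exact 95% counting interval 9.67 to 2265). These intervals cover counting error only. Both genes passed the filter on low counts through the 4LPS pools alone, so they could only be called higher.

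Of 12 Vav partners and GTPases, 3 were higher and 0 lower. *Vav2*, a relative of *Vav1*, was at 212 ± 3.64 CPM (NS) and 283 ± 3.39 CPM (4LPS), a rise of 0.42 (SE 0.04, edgeR adjusted p 4.08e-04) log2 units, and *Rac2*, the Rac of blood cells, rose by 0.49 (SE 0.07, edgeR adjusted p 0.004703). *Dock2*, an exchange factor for Rac, had an estimate of 0.21 (SE 0.05, edgeR adjusted p 0.0352) and did not pass in 10 of 19 alternatives, including the fits without 4LPS replicate 1, 4LPS replicate 2, NS replicate 1 or NS replicate 2 (adjusted p 0.0643 to 0.115), and its estimate moved to 0.108 (adjusted p 0.172) with limma on log2(FPKM + 1). Of 9 PI3-kinase subunits, 1 was higher and 1 lower. *Pik3cd*, the leukocyte catalytic subunit, had an estimate of 0.22 (SE 0.04, edgeR adjusted p 0.0133) and did not pass in 6 of 19 alternatives, including the fits without 4LPS replicate 1 or NS replicate 1 (adjusted p 0.0515 to 0.0555), and its estimate moved to 0.118 (adjusted p 0.0763) without a composition factor. *Pik3r3*, a regulatory subunit, fell by 0.83 on the log2 scale (SE 0.16, edgeR adjusted p 0.0119) and did not pass once NS replicate 1 was left out (adjusted p 0.05002).

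Below the Tec kinases, 5 of 18 genes of phospholipase C, protein kinase C and NF-kB adaptors were higher and 2 lower. *Prkcb*, a protein kinase C of leukocytes, rose by 0.44 (SE 0.05, edgeR adjusted p 7.24e-04). *Prkcd*, another protein kinase C, rose by 0.33 (SE 0.06, edgeR adjusted p 0.00854), and *Dgkz*, which removes the lipid that activates these kinases, by 0.41 (SE 0.08, edgeR adjusted p 0.0142). *Plcg2*, a substrate of Btk, had an estimate of 0.23 (SE 0.05, edgeR adjusted p 0.0253) and did not pass in 8 of 19 alternatives, including the fits without 4LPS replicate 1, 4LPS replicate 2, 4LPS replicate 3 or NS replicate 1 (adjusted p 0.0617 to 0.07898), and its estimate moved to 0.137 (adjusted p 0.0905) without a composition factor. *Prkca* fell by 0.61 on the log2 scale (SE 0.06, edgeR adjusted p 4.50e-04) and *Prkce* by 0.72 on the log2 scale (SE 0.10, edgeR adjusted p 0.00237).

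Of 20 listed regulators of Src family kinases and Syk, which can restrain or release them, 5 were higher and 0 lower. *Csk*, which switches Src family kinases off, was at 259 ± 12.3 CPM (NS) and 264 ± 9.96 CPM (4LPS) and did not pass (edgeR adjusted p 0.712). *Ptprc* (CD45), which removes the mark set by Csk, was at 436 ± 52.9 CPM (NS) and 671 ± 19.4 CPM (4LPS), a rise of 0.62 (SE 0.08, edgeR adjusted p 0.00276) log2 units. The phosphatases *Ptprj* and *Ptpn6* rose by 0.30 (SE 0.05, edgeR adjusted p 0.00776) and 0.38 (SE 0.07, edgeR adjusted p 0.008696). *Ptpn22*, a phosphatase of lymphocytes, had an estimate of 0.73 (SE 0.16, edgeR adjusted p 0.019) and did not pass in 4 of 19 alternatives, including the fits without 4LPS replicate 1, 4LPS replicate 3, NS replicate 1 or NS replicate 2 (adjusted p 0.0532 to 0.0695). *Inppl1*, a lipid phosphatase, had one of 0.23 (SE 0.05, edgeR adjusted p 0.0213) and did not pass in 8 of 19 alternatives, including the fits without 4LPS replicate 1, 4LPS replicate 2, 4LPS replicate 3 or NS replicate 1 (adjusted p 0.0502 to 0.0763), and its estimate moved to 0.133 (adjusted p 0.106) with limma on log2(FPKM + 1).

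Of 17 receptors on the list of ITIM receptors, 8 were higher and 1 lower, with a median log2 fold change of 0.63. *Cd72*, which dampens B cell receptor signals, was at 6.57 ± 0.298 CPM (NS) and 51.6 ± 6.29 CPM (4LPS), a rise of 2.97 (SE 0.11, edgeR adjusted p 2.77e-05) log2 units. *Cd22*, a sialic acid receptor, rose by 1.73 (SE 0.09, edgeR adjusted p 3.69e-05), *Fcgr2b*, the inhibitory Fc receptor, by 0.67 (SE 0.07, edgeR adjusted p 7.14e-04), and *Siglece* by 0.63 (SE 0.07, edgeR adjusted p 0.00127). *Siglec1*, one of the 8 higher, has a short tail with no known ITIM. *Pecam1*, of endothelial cells and platelets, fell by 0.66 on the log2 scale (SE 0.17, edgeR adjusted p 0.0386) and did not pass in 4 of 19 alternatives, including the fits without 4LPS replicate 1, 4LPS replicate 2, NS replicate 1 or NS replicate 3 (adjusted p 0.0547 to 0.115). Endothelial markers summed to 514 ± 215 CPM (NS) and 237 ± 106 CPM (4LPS), and their part in the *Pecam1* result was not tested.

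**Figure D5:**
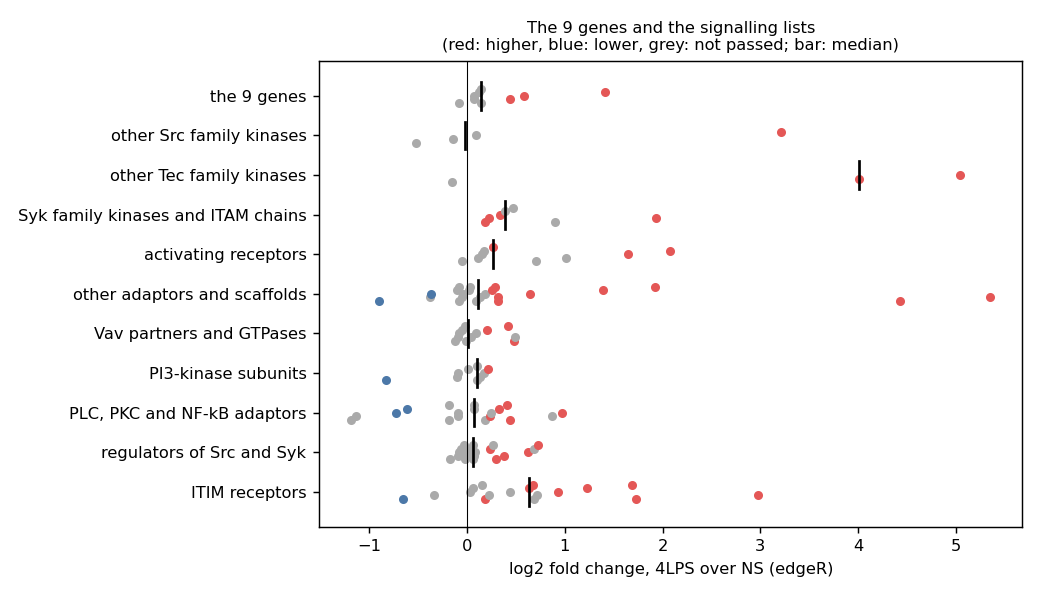
Log2 fold change of 4LPS over NS (x axis) for the tested genes of each list (y axis), 1 point per gene, red for higher, blue for lower and grey for not passed, with black bars for medians. The median is 0.14 for the 9 genes and 0.63 for the ITIM receptor list, and *Lck* and *Txk* lie above 3.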

How the data were processed

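The authors mapped paired reads with HISAT2 2.0.4 and Bowtie2 2.2.5 to mm39 (the submitters' notes also list mm10) and estimated expression with RSEM 1.2.8. No annotation or strand setting is stated. Deposited were expected counts (not normalized), FPKM and TPM values scaled for length and total, and a normalized signal. TPM, deposited by the authors, replaced FPKM in an alternative for the Src family shares, and the signal and group means were not used. Counts were rounded and tested in R 4.3.3 with edgeR 4.0.16 (TMM, filterByExpr, quasi-likelihood test, Benjamini-Hochberg adjustment). Alternatives were other scalings and filters, DESeq2 1.42.0, limma 3.58.1 (voom, and log2(FPKM + 1) or log2(FPKM + 0.1)), a replicate block, a gene length correction and leaving out each pool. The fit was tested on simulated data. Pools of a group differed beyond sampling noise (mean chi-square per gene of 5.904 or more), so no library was repeated. Total counts near equality give similar precision, and low genes are the least precise. Coordinates are from GENCODE on GRCm39.

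The genes and lists were chosen with earlier results of these data known. Named are the 9 genes, the other Src and Tec family kinases, the most similar gene of each, the 4 smallest adjusted p per list among genes that passed, and every gene of a direction with 5 or fewer calls. *Csk* was added after its values were seen. Some genes that this rule names are not reported here. One listed name, Sts1, is a synonym of *Ubash3b*.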

Additional observations from a re-analysis of the deposited data

How the results depend on the processing

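*Fgr*, *Src* and *Pik3ap1* were called in all 19 alternatives, with log2 fold changes of 1.10 to 1.64, 0.46 to 0.66 and 0.34 to 0.47, and *Lyn* joined them with DESeq2. Without a composition factor, *Btk* and *Blnk* were at -0.0268 and -0.0217. With limma on log2(FPKM + 1), log2(FPKM + 0.1) and log2(FPKM + 1) without a filter, *Btk* was at -0.0227, -0.0231 and -0.0227 and *Blnk* at -0.0176, -0.0177 and -0.0176. In those 3 settings 823, 813 and 818 of all genes were higher and 1486, 1454 and 1335 lower, against 1308 and 845, and 26, 26 and 27 pathway genes were higher and 13, 13 and 12 lower, against 41 and 6. Without a composition factor 906 genes were higher and 1711 lower (34.6% of calls higher, against 60.8%), with 17 pathway genes lower, and the median of all genes moved to -0.11. Leaving out 1 pool gave 781 to 1629 higher and 363 to 1215 lower, the lowest counts without NS replicate 1 and without 4LPS replicate 2, and moved *Bmx* between -0.47 and 0.38 (0.04 without 4LPS replicate 2). The cause was not tested. Deviations of same-numbered pools correlated at 0.46, -0.26 and 0.05, and those of differently numbered pools at -0.54 to 0.47. With 3 pools per group, this cannot settle whether pools of the same number belong together. The replicate block gave 1275 higher and 1081 lower, with 3 of the 9 genes higher. With it the SE of *Fgr* was 0.099, against 0.22. Of 41 other named genes, 28 kept their direction and call in every alternative run. Depth limits genes such as *Blk*.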
